A study of Mus musculus with 4 samples.

Results

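Fuz and 42 other protein-coding genes of the primary cilium were compared between cortical cultures depleted of CTCF and control cultures. The genes were taken by symbol: all 14 Ift and 8 Bbs genes with a numbered symbol, and 21 genes chosen by name, out of 37437 genes listed in the files. They lie on 19 chromosomes, and 39 of the 43 were expressed well enough to be tested. Fuz was put in the list with its change already known, so its position at the top of the list is a description.

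The primary cilium is a single antenna-like projection built on the older centriole, and most cortical neurons and astrocytes carry one. Proteins are carried along it by intraflagellar transport (IFT) trains, membrane receptors are moved by the BBSome, and entry is gated by the transition zone. FUZ, INTU and WDPCP belong to the CPLANE module, which acts at the base of the cilium during its assembly. Loss of Fuz in mice impairs ciliogenesis and hedgehog signalling, the pathway that depends on the cilium in vertebrates.

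The study used primary mouse cortical culture infected with adeno-associated virus, which carried either a knockdown of CTCF (shCTCF, 2 libraries) or a knockdown aimed at bacterial lacZ, which mouse cells lack (shLAC, 2 libraries). Both groups therefore carried virus, and the labels give no strain, age of culture, time after infection or share of infected cells. CTCF is the zinc finger protein that, with cohesin, anchors chromatin loops. The labels do not say whether the replicates of a group were separate cultures, so the spread behind the p-values is that between libraries and may be technical. Neuronal markers were high: the 4 pan-neuronal markers (Tubb3, Rbfox3, Map2 and Snap25) summed to 793 and 781 scaled TPM in shCTCF and 774 and 782 in shLAC.

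Levels are TPM, a share of transcripts corrected for gene length, so they can be compared between genes, but the sequencing depth behind them is unknown. One control library, shLAC replicate 2, stood apart, with 20.2% of its TPM in 13 satellite-like predicted genes, against 0.405% to 1.86% in the others. All values were therefore divided by a median-ratio factor for each library (1.096 and 1.048 in shCTCF, 1.047 and 0.832 in shLAC) and are called scaled TPM. Changes are log2 fold changes of shCTCF over shLAC on log2(scaled TPM + 1), from limma fitted on 11268 coding genes with Benjamini-Hochberg adjustment, and a change was called at an adjusted p below 0.05. The knockdown was seen in the RNA: Ctcf was at 3.25 and 3.40 scaled TPM in shCTCF and 8.11 and 8.80 in shLAC, and fell by 1.13 on the log2 scale (SE 0.0666, limma adjusted p = 0.00288).

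Of the 39 members tested, Fuz rose, none fell and 38 did not pass. Among all 11268 genes tested, 2.58% rose and 3.48% fell. Fuz was listed with its change known, so its call cannot be set against these shares. Of the 38 other members 0 were called, and few or no calls among 38 genes are near the background. The median change was -0.04 over the members and 0 over all genes tested. The summed level of the 43 genes was 260 and 257 scaled TPM in shCTCF and 251 and 260 in shLAC, and these ranges overlapped. Without Fuz the sum was 252 and 250 in shCTCF and 247 and 257 in shLAC, which also overlapped. The change of the 38 other members lay between -0.30 and 0.37, with 35 of them within 0.2 of zero, and their 95% intervals reached from -0.47 to 0.57. Besides Fuz, 6 of the 38 other members (15.8%) stood at an unadjusted limma p below 0.05, while 23.6% of all genes did so. Adding 1 to the scaled TPM shrinks the changes of genes at low levels. With 0.1 added instead, the change was 0.57 for Bbs10 and -0.41 for Wdpcp, and neither passed.

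**Figure D1:**
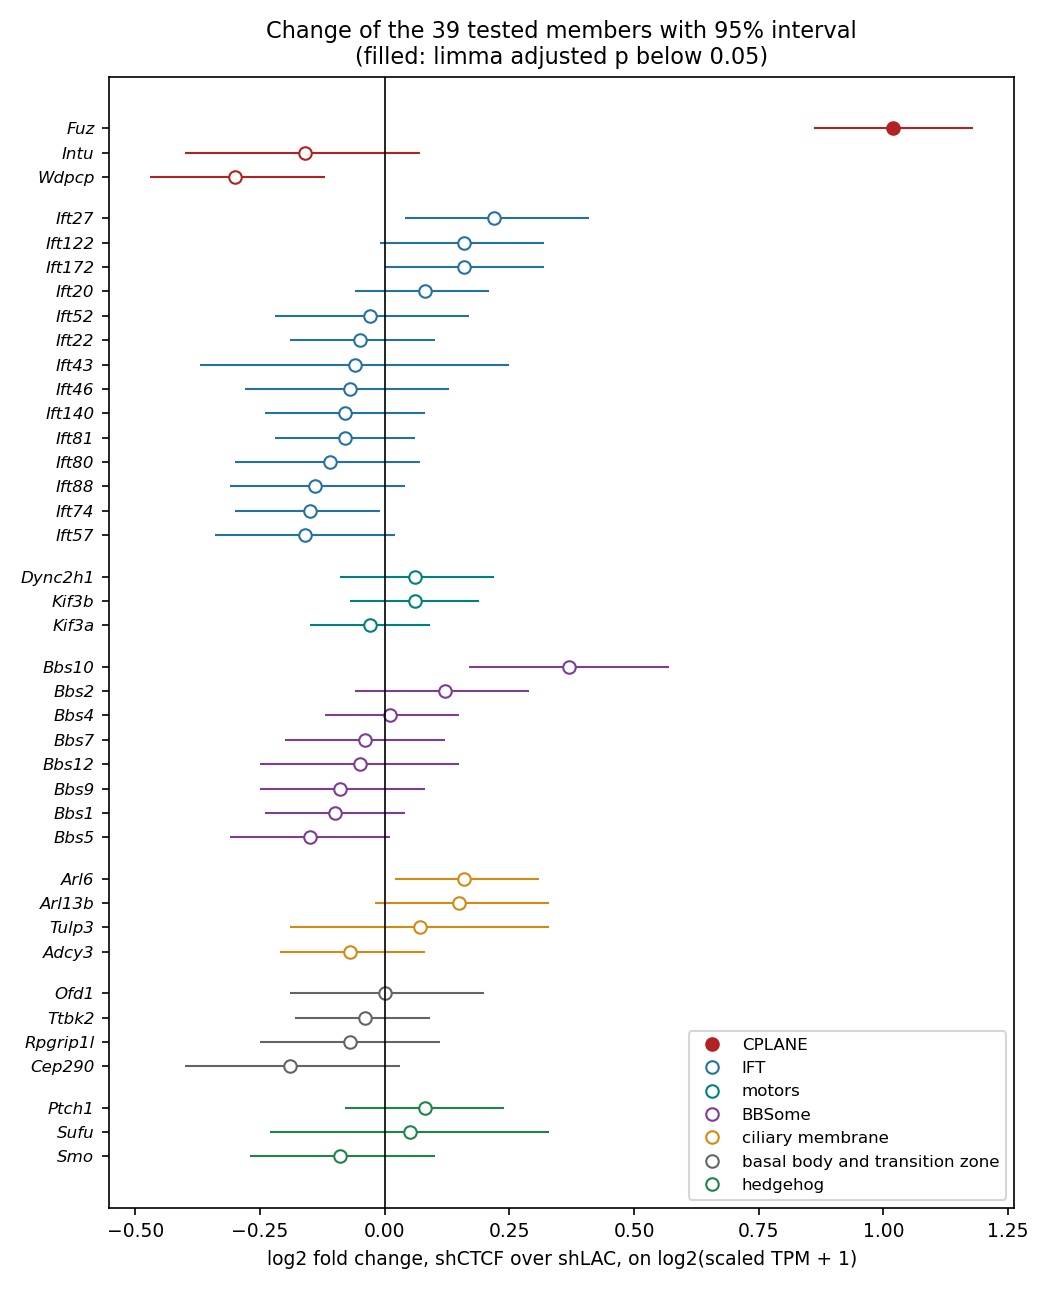
Log2 fold change of shCTCF over shLAC (x axis, log2 of scaled TPM + 1) for the 39 tested members, grouped by role, with bars for the 95% interval from limma and filled points for adjusted p below 0.05. Fuz stands alone at 1.02, and the other 38 lie between -0.30 and 0.37.

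Among the CPLANE genes in the list, Fuz rose and neither Wdpcp nor Intu passed the test. Fuz (ENSMUSG00000011658, chromosome 7, 44896079 to 44902631, + strand, GRCm38) was at 7.48 and 7.82 scaled TPM in shCTCF and at 3.13 and 3.42 scaled TPM in shLAC. The levels within each group lay close together, and both shCTCF libraries were above both shLAC libraries. In the values as deposited Fuz was at 8.20 TPM in each shCTCF library and at 3.28 and 2.84 TPM in the shLAC libraries. The mean was 7.65 ± 0.244 scaled TPM in shCTCF and 3.27 ± 0.199 in shLAC (SD, n = 2 each), a ratio of 2.34. On the log2 scale the change was 1.02 (SE 0.0664, 95% interval 0.86 to 1.18, limma adjusted p = 0.00322), the 7th highest of the 11268 genes. An exact permutation test of 2 against 2 libraries cannot go below a 2-sided p of 0.333. The call held in each of the 13 alternatives, with limma adjusted p up to 0.0224.

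Wdpcp, also a CPLANE subunit, was at 1.85 and 1.95 scaled TPM in shCTCF and at 2.68 and 2.44 in shLAC. Both shCTCF libraries were lower than both shLAC libraries, but the change of -0.30 did not pass (SE 0.0738, limma adjusted p = 0.0697). Without shLAC replicate 2 it passed, at -0.35 (limma adjusted p = 0.0394, in a range up to 0.695 over the 13 alternatives). Intu, another CPLANE subunit, was at 2.47 and 2.30 scaled TPM in shCTCF and at 2.46 and 3.15 in shLAC. These groups overlapped, and the change was -0.16 with a 95% interval of -0.40 to 0.07 (limma adjusted p = 0.369). The interval of Fuz lay wholly above those of Wdpcp and Intu. The 3 genes summed to 11.8 and 12.1 scaled TPM in shCTCF and 8.28 and 9.01 in shLAC, with Fuz the most abundant of them in every library. The higher sum in shCTCF came from Fuz, which was listed with its change known. The shCTCF mean was lower than the shLAC mean for Wdpcp (1.90 against 2.56 scaled TPM) and for Intu (2.39 against 2.81).

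**Figure D2:**
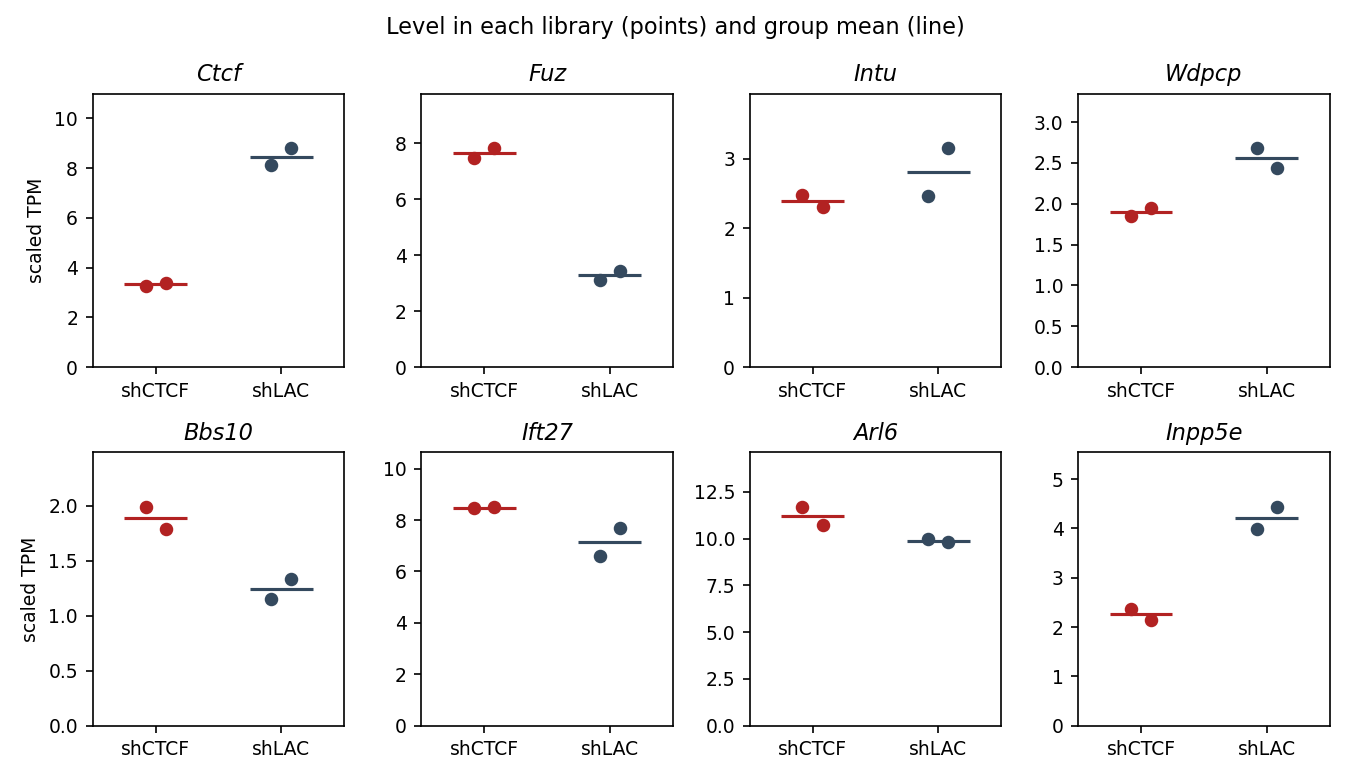
Scaled TPM (y axis, from 0) of 8 genes in the shCTCF libraries (red, left) and the shLAC libraries (dark, right), with a point per library and a line at the group mean. Fuz is higher and Ctcf and Inpp5e are lower in both shCTCF libraries, and Intu overlaps between the groups.

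The 250 bases before the start of Fuz and of Bbs10, the member with the next highest change, are shown because they hold the letters searched for CTCF and X-box motifs next to these starts. Both come from RefSeq on GRCm38.p6 and are written 5′ to 3′ on the gene's strand. Capitals mark CCCTC, from which CTCF takes its name, and GTTGCC, the half-site of the X-box that RFX transcription factors bind before many cilium genes, each on either strand. The Fuz stretch is chr7:44895829-44896078 and the Bbs10 stretch is chr10:111298429-111298678, both on the + strand.
Fuz: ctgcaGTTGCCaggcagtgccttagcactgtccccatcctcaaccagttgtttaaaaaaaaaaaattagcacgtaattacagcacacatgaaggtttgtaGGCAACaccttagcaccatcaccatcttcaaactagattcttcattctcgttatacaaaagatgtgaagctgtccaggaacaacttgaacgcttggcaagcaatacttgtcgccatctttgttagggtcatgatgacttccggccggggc
Bbs10: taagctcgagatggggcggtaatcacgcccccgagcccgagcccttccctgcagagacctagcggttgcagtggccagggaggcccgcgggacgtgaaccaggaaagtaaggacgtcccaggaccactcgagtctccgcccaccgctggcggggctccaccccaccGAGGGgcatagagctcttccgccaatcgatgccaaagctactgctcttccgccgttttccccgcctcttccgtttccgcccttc

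Fuz held no CCCTC in this window and held GTTGCC at -245 to -240 on the + strand and at -150 to -145 on the other strand, counted from the start. Bbs10 held CCCTC once, on the other strand at -84 to -80, and GTTGCC nowhere. The letters CCCTC were in 64.3% of the 42 windows of the members, which cover 39 of the genes, and in 60.5% of all 32851 windows. A longer CTCF core motif of 14 letters, which can hold CCCTC on its other strand, was in 0 windows of the members and in 0.0517% of all windows. GTTGCC was in 19.0% of the members' windows, among them those of Fuz, Intu, Kif3a, Arl13b and Bbs7, and in 10.4% of all windows. The full X-box, a 14-letter palindrome that can overlap GTTGCC, was in the window of Bbs7 alone among the members and in 0.374% of all windows. The members' windows were richer in G and C, with a median of 59.8% against 52.4% over all windows, and the Fuz window held 44.8%. These matches describe the letters and say nothing of binding.

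Of 22 other coding genes within 200 kb of its start, 15 were tested and 0 passed with limma, where 6.06% of all genes passed in either direction, so that few or no calls among 15 genes are near the background. At an unadjusted p below 0.05 stood 3 of the 15, against 23.6% of all genes, and the changes ran from -0.20 to 0.25. Med25, a Mediator subunit that starts 3.4 kb upstream on the opposite strand, was at 11.1 and 11.3 scaled TPM in shCTCF and at 11.9 and 10.9 in shLAC. Its groups overlapped, and its change was -0.02 with a 95% interval of -0.17 to 0.12. Ap2a1, an adaptor subunit of clathrin-mediated endocytosis, converges on Fuz from the other side and shares 720 exon bases with it, 14.4% of the exon bases of Fuz, on the opposite strand. It was at 40.5 and 43.2 scaled TPM in shCTCF and at 40.4 and 39.6 in shLAC, with a change of 0.06 (95% interval -0.06 to 0.19). The gene D7Bwg0826e, on the opposite strand and not analysed here, shares 24.1% of the exon bases of Fuz. These may include bases also shared with Ap2a1. Whether the reads were counted by strand is not given in the sources used here, so reads in the shared bases cannot be assigned with certainty. The smallest limma adjusted p around Fuz was 0.101, for Cpt1c, a brain carnitine palmitoyltransferase, at 14.2 and 14.7 scaled TPM in shCTCF and 12.2 and 12.9 in shLAC.

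**Figure D3:**
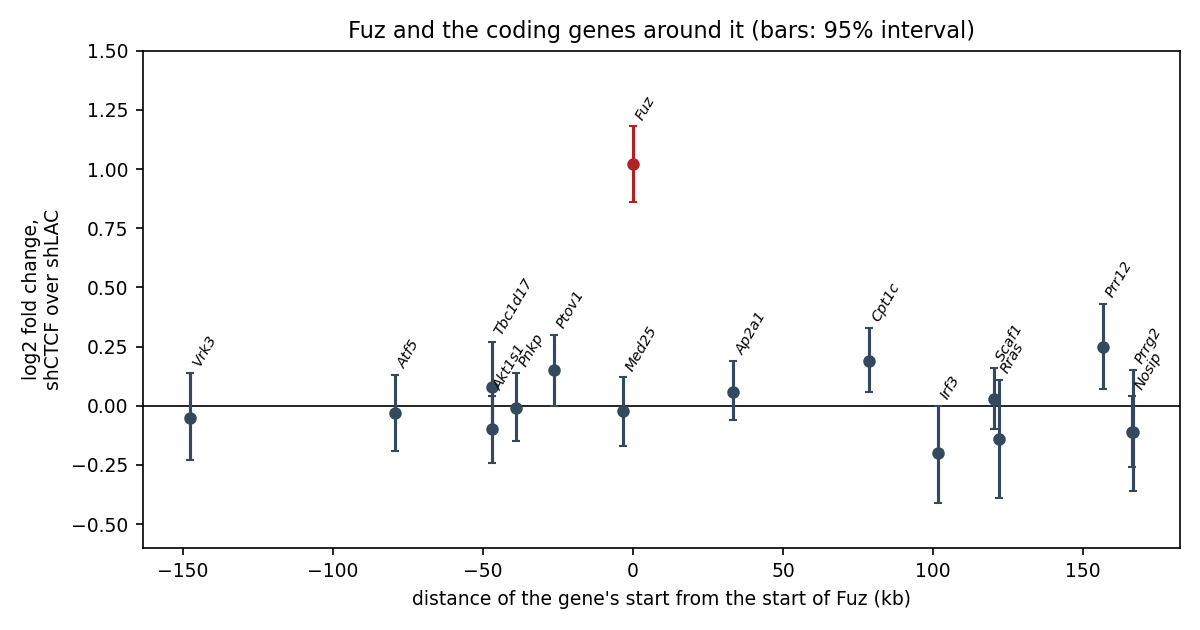
Log2 fold change of shCTCF over shLAC (y axis) against the distance of each gene's start from the start of Fuz (x axis, kb) for Fuz and the 15 other tested coding genes within 200 kb. Bars are 95% intervals from limma. Fuz is at 1.02 and its neighbours lie between -0.20 and 0.25.

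None of the 14 IFT genes passed. Their levels ran from Ift43 and Ift80 at the low end to Ift20, which also acts at the Golgi, and 10 had a negative and 4 a positive change, with a median of -0.07. Their summed level was 102 and 101 scaled TPM in shCTCF and 100 and 104 in shLAC, so the ranges overlapped. Ift27, a small GTPase of the IFT-B complex that takes part in BBSome export, had the largest change of the class. It was at 8.46 and 8.52 scaled TPM in shCTCF and at 6.60 and 7.70 in shLAC, with a change of 0.22 (SE 0.0764, limma adjusted p = 0.145). Both shCTCF libraries were above both shLAC libraries, and Ift27 passed only when shLAC replicate 2 was left out (change 0.32, limma adjusted p = 0.0232, in a range up to 0.515 over the 13 alternatives).

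Ift20 was at 23.2 and 22.5 scaled TPM in shCTCF and at 22.5 and 20.8 in shLAC, with a change of 0.08 (limma adjusted p = 0.456). Ift22, an atypical small GTPase of IFT-B, was at 17.6 and 16.1 scaled TPM in shCTCF and at 17.0 and 17.8 in shLAC. These groups overlapped, and the change was -0.05 (limma adjusted p = 0.690). Of the IFT-A genes, which serve return transport, Ift122 had a change of 0.16, Ift140 of -0.08 and Ift43 of -0.06, and none passed. Ift88, whose loss in mice abolishes cilia, was at 3.42 and 3.40 scaled TPM in shCTCF and at 3.64 and 4.05 in shLAC, with a change of -0.14 (95% interval -0.31 to 0.04).

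None of the 3 motor genes passed, and they summed to 60.8 and 59.5 scaled TPM in shCTCF and 58.3 and 62.0 in shLAC. Kif3a, a motor subunit of kinesin-2 that moves trains towards the tip, was the most abundant member, at 40.4 and 39.5 scaled TPM in shCTCF and at 39.6 and 42.1 in shLAC. Its groups overlapped and its change was -0.03 (95% interval -0.15 to 0.09, limma adjusted p = 0.753). Kif3b, its partner subunit, was at 15.2 and 15.0 scaled TPM in shCTCF and at 14.0 and 14.9 in shLAC, a change of 0.06 (95% interval -0.07 to 0.19). Dync2h1, the heavy chain of the dynein that returns trains to the base, was at 5.15 and 4.98 scaled TPM in shCTCF and at 4.64 and 4.98 in shLAC, also a change of 0.06 (95% interval -0.09 to 0.22).

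None of the 8 Bbs genes passed. Bbs10, a chaperonin-like protein that helps assemble the BBSome, was closest to the threshold. It was at 1.99 and 1.79 scaled TPM in shCTCF and at 1.15 and 1.33 in shLAC, both shCTCF libraries above both shLAC libraries. The change was 0.37 (SE 0.0827, 95% interval 0.17 to 0.57, limma adjusted p = 0.0538). Bbs10 passed in 6 of 12 alternatives, with limma adjusted p from 0.0156, without shLAC replicate 2, to 0.194. In 5 of the 6, all 4 libraries were in the fit. Among these were both fits of the values as deposited, where the median change of all genes was itself raised by 0.17. Another was a block by replicate number, a pairing that the labels do not give. The rest were the fits with the same coding total and with an untrended prior. At a level near the filter of 1 TPM the log2(TPM + 1) scale understates its change: the ratio of means was 1.52. The related chaperonin-like gene Bbs12 was at 1.11 and 1.31 scaled TPM in shCTCF and at 1.36 and 1.21 in shLAC, which overlapped.

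The 6 Bbs genes that encode BBSome subunits (Bbs1, Bbs2, Bbs4, Bbs5, Bbs7 and Bbs9) had changes from -0.15 in Bbs5 to 0.12 in Bbs2. Bbs4 was at 13.1 and 13.0 scaled TPM in shCTCF and at 12.5 and 13.4 in shLAC, a change of 0.01 (95% interval -0.12 to 0.15). Bbs1 was at 5.62 and 5.87 scaled TPM in shCTCF and at 6.31 and 6.13 in shLAC, a change of -0.10 (limma adjusted p = 0.368). The 8 Bbs genes summed to 38.1 and 38.3 scaled TPM in shCTCF and 38.1 and 39.3 in shLAC.

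Among proteins of the ciliary membrane, none of 4 passed. Arl6, the small GTPase that recruits the BBSome to membranes, was at 11.7 and 10.7 scaled TPM in shCTCF and at 9.96 and 9.80 in shLAC. The groups did not overlap, and the change was 0.16 (SE 0.0602, limma adjusted p = 0.168). Arl13b, a small GTPase used as a marker of the ciliary membrane, was at 2.54 and 2.33 scaled TPM in shCTCF and at 2.11 and 2.07 in shLAC, a change of 0.15 (limma adjusted p = 0.259). Adcy3, the adenylyl cyclase that marks the cilia of neurons, was at 8.38 and 8.98 scaled TPM in shCTCF and at 9.05 and 9.20 in shLAC, a change of -0.07 (95% interval -0.21 to 0.08). Of the exon bases of Adcy3, 22.1% are shared with Cenpo on the opposite strand. Tulp3, which brings receptors into the cilium, overlapped between the groups and had a change of 0.07.

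At the base of the cilium, none of 4 genes passed. Ttbk2, the kinase that starts cilium growth from the basal body, was at 9.99 and 9.48 scaled TPM in shCTCF and at 10.3 and 9.84 in shLAC, a change of -0.04 (95% interval -0.18 to 0.09). It shares 29.9% of its exon bases with Cdan1 on the same strand, which makes its level uncertain. Rpgrip1l, of the transition zone, was at 2.24 and 2.44 scaled TPM in shCTCF and at 2.38 and 2.63 in shLAC, and the groups overlapped. Cep290, which links the transition zone microtubules to the membrane, had the lowest change of the class. It was at 1.34 and 1.13 scaled TPM in shCTCF and at 1.41 and 1.67 in shLAC, a change of -0.19 (limma adjusted p = 0.272). Ofd1, a centriole protein, overlapped between the groups, with a change of 0.00 (95% interval -0.19 to 0.20).

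The hedgehog genes gave no call, and 4 of 7 were too low to test. Ptch1, the hedgehog receptor and itself a target of the pathway, was at 3.79 and 3.71 scaled TPM in shCTCF and at 3.36 and 3.63 in shLAC. Its change was 0.08 (95% interval -0.08 to 0.24, limma adjusted p = 0.513). Smo, the transducer that enters the cilium once Ptch1 no longer inhibits it, had a change of -0.09 (limma adjusted p = 0.538). Its level was 1.55 and 1.39 scaled TPM in shCTCF and 1.59 and 1.66 in shLAC. Sufu, which holds GLI factors inactive, overlapped, with a change of 0.05.

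The pathway's transcription factors and Kif7, a kinesin that regulates them at the tip of the cilium, were below 1 TPM in every library. Gli1, the target most often used to read the pathway out, was at 0.0182 and 0.00954 scaled TPM in shCTCF and at 0.00955 and 0.0241 in shLAC. Gli2 was at 0.0912 and 0.0573 scaled TPM in shCTCF and at 0.0573 and 0.132 in shLAC, and both genes overlapped. Gli3 was at 0.237 and 0.219 scaled TPM in shCTCF and at 0.153 and 0.204 in shLAC, and Kif7 at 0.429 in each shCTCF library and 0.373 in each shLAC library. At such levels no change could be judged.

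**Figure D4:**
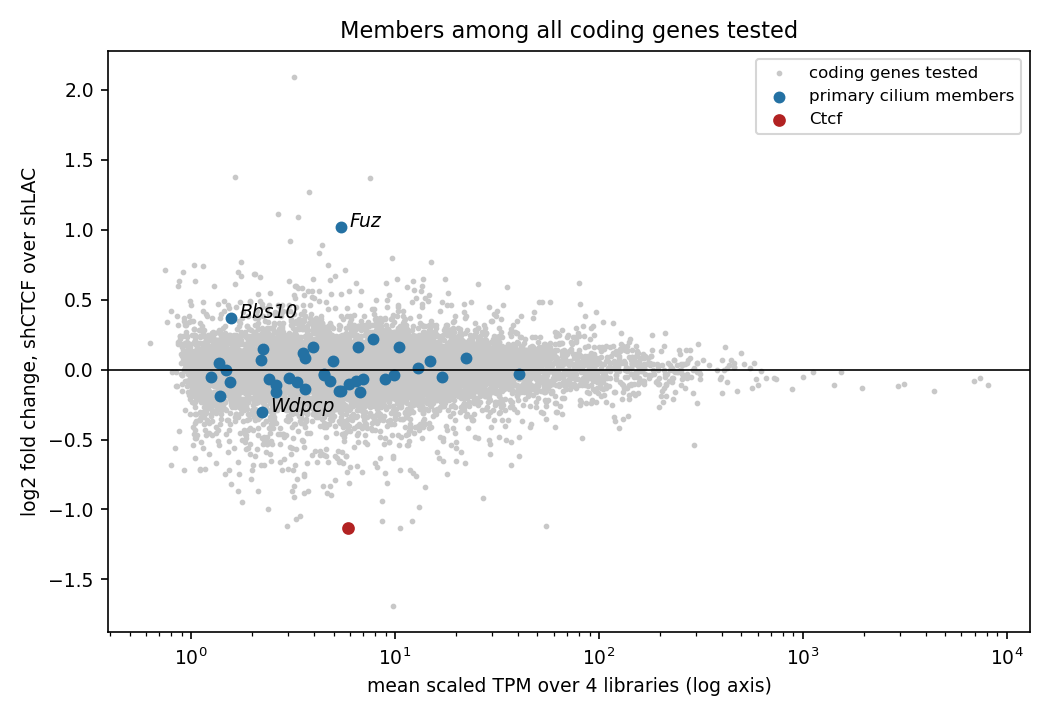
Log2 fold change of shCTCF over shLAC (y axis) against mean scaled TPM over the 4 libraries (x axis, log scale) for all 11268 coding genes tested (grey), the 39 members (blue) and Ctcf (red). All members but Fuz lie inside the grey cloud around zero, and Fuz at 1.02 is the 7th highest of all genes.

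Counted by separation alone, both shCTCF libraries were above both shLAC libraries in 11 of the 38 tested members other than Fuz and below both in 13. Over all genes tested these shares were 27.5% and 27.1%, so these members separated about as often as other genes.

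Other cilium and hedgehog genes, in 8 lists chosen with earlier results of these data known, gave 7 calls among 103 tested, 2 higher and 5 lower. That is 6.80%, near the 6.06% of all genes tested that were called in either direction. Their median change was 0.00, and 21.4% of them stood at an unadjusted p below 0.05, against 23.6% of all genes. Inpp5e, a phosphoinositide phosphatase of the ciliary membrane, was at 2.37 and 2.15 scaled TPM in shCTCF and at 3.98 and 4.44 in shLAC. It fell by 0.68 on the log2 scale (SE 0.0778, limma adjusted p = 0.00805), to 53.7% of the shLAC mean. Inpp5e passed in 10 of 13 alternatives, each single-library omission among them, and did not pass in the values as deposited or among genes of every biotype.

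The other calls were smaller. Tmem237, of the transition zone, fell by 0.39 on the log2 scale, to 4.96 and 4.78 scaled TPM in shCTCF, against 6.77 and 6.64 in shLAC (limma adjusted p = 0.0180). Dynll1, a light chain that dynein shares with many other complexes, fell by 0.35, to 118 and 111 scaled TPM in shCTCF, against 153 and 140 in shLAC (limma adjusted p = 0.0269). Cep83, of the distal appendages that dock the basal body, fell by 0.34 (limma adjusted p = 0.0392), and Cluap1, an IFT-B subunit, fell by 0.31 (limma adjusted p = 0.0365). Cep120, needed for centriole elongation, rose by 0.37 (limma adjusted p = 0.0165), with 9.70 and 9.57 scaled TPM in shCTCF and 7.26 and 7.17 in shLAC. Rfx3, a transcription factor of cilium genes, was at 42.2 and 44.8 scaled TPM in shCTCF and 34.9 and 37.4 in shLAC, and rose by 0.26 at an adjusted p just under the threshold (limma adjusted p = 0.0496). These 6 calls were each lost without shCTCF replicate 1, without shCTCF replicate 2, in the values as deposited and over genes of every biotype. All but Cep120 were also lost without the filter on low values, Cluap1 and Rfx3 without shLAC replicate 1, and Rfx3 with an untrended prior. Without shCTCF replicate 1 and without shCTCF replicate 2, the change was 0.36 and 0.38 for Cep120, -0.41 and -0.37 for Tmem237, -0.39 and -0.31 for Dynll1, and -0.39 and -0.28 for Cep83. It was -0.30 and -0.32 for Cluap1 and 0.30 and 0.22 for Rfx3.

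By list, the calls were 1 of 13 tested IFT and BBSome genes under other symbols, 1 of 11 motor genes, 1 of 20 transition zone genes, 2 of 21 basal body and centriole genes, and 1 of 17 membrane and receptor genes. They were 0 of 9 hedgehog ligands, receptors and regulators, 0 of 6 motile cilium genes and 1 of 6 RFX and FOXJ1 factors by limma. At an unadjusted p below 0.05, in the same order of lists, stood 1, 2, 3, 5, 3, 4, 3 and 1 genes. With 6 to 21 genes tested a list, these counts are small, and nothing particular to a list is read from them. Of the 20 motile cilium genes listed, 14 were below 1 TPM in every library, as were 12 of the 21 further hedgehog genes, Shh among them.

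Astrocytes are ciliated, and 2 of their 5 markers fell. Of these, Aqp4 fell by 1.07 (limma adjusted p = 0.0151) and Slc1a3 by 0.52 (limma adjusted p = 0.0204) on the log2 scale. Aldh1l1 had a change of -0.33 (limma adjusted p = 0.167), and Gfap and S100b overlapped between the groups, with -0.21 and -0.17. The list summed to 48.8 and 37.9 scaled TPM in shCTCF and 66.2 and 59.0 in shLAC. In bulk RNA, fewer cells of a type and less RNA per cell cannot be told apart, and the part of astrocytes in the changes of Fuz, Inpp5e and the other genes called was not tested. The 5 oligodendrocyte lineage markers summed to 73.1 and 66.1 scaled TPM in shCTCF and 71.9 and 60.8 in shLAC, and the 4 proliferation markers to 21.9 and 24.7 in shCTCF and 21.0 and 23.3 in shLAC, with overlap in each. Of the neuronal markers, Rbfox3 rose by 0.25 (limma adjusted p = 0.0461). Tubb3, Map2 and Snap25 had changes of 0.11, 0.03 and -0.11, and none of these passed. The 3 excitatory markers summed to 120 and 114 scaled TPM in shCTCF and 106 and 101 in shLAC, with 0 calls by limma and 1 at an unadjusted p below 0.05. The 3 inhibitory markers summed to 119 and 116 in shCTCF and 110 and 104 in shLAC, and Slc32a1 rose by 0.36 (limma adjusted p = 0.0462). The 3 fibroblast markers summed to 2.02 and 1.78 in shCTCF and 3.10 and 2.93 in shLAC. Dcn made up most of this sum and fell by 0.48 (limma adjusted p = 0.0216). Col1a1 and Col1a2 were below 1 TPM in every library and were not tested. All 4 microglial and all 3 endothelial markers were below 1 TPM in every library. Of the 5 ependymal markers, which go with motile cilia, the sum was 3.08 and 3.09 scaled TPM in shCTCF and 3.07 and 2.27 in shLAC.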

How the data were processed

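RNA from 4 libraries of primary mouse cortical culture, 2 shCTCF and 2 shLAC, was sequenced as paired reads. The authors deposited 1 TPM file per library with 37437 Ensembl genes. Per the submitters' processing notes, CASAVA, RSEM 1.2.28 and mm10 were used. No source used here gives the annotation, the aligner settings or the strandedness. TPM keeps no depth, so count tools were not used.

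GENCODE vM21 (GRCm38) named 37060 genes. The fit took protein-coding genes with 300 or more exon bases that reached 1 TPM in 2 or more libraries. It left out 13 predicted genes with 100 TPM or more in 1 library and 8 times the level of each other library or more. The alternatives over genes of every biotype kept only the 1 TPM filter, so these 13 genes and genes under 300 exon bases were let in. Values were scaled by median ratios and tested as log2(scaled TPM + 1) with limma 3.58.1 in R 4.3.3 (trended prior, no covariate), after a check on simulated data. The simulation used equal library scales, so it did not cover a library like shLAC replicate 2, and no result here rests on it.

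Members, lists, fit and alternatives were chosen with earlier results of these data known. The text names Fuz, Intu and Wdpcp, called members, the 2 most abundant of each role class with the largest change where none was called, and up to 4 called genes per list. Other members named, the X-box motifs and observations were chosen after their values were seen.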

Additional observations from a re-analysis of the deposited data

How the results depend on the processing

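Fuz stayed called in all 13 alternatives (change 0.97 to 1.2), as did Ctcf (-1.32 to -0.96). With the values as deposited, which raise the median of all genes by 0.17, the members' median was 0.12, over coding genes or genes of every biotype; it was -0.08 to -0.01 with 1 library left out. The members called higher numbered 2 (Fuz and Bbs10) as deposited in either gene set, with the same coding total, with an untrended prior and with the replicate block, and 1 to 3 with 1 library left out; the 3 came without shLAC replicate 2. The members called lower numbered 1 (Wdpcp) with the replicate block and 0 to 1 with 1 library left out. Among the other lists, higher calls numbered 1 as deposited in either gene set, without the filter and with the untrended prior, 0 when scaled over every biotype, 6 with the block and 0 to 8 with 1 library left out. Lower calls there numbered 0 as deposited in either gene set and when scaled over every biotype, 1 without the filter and 1 to 6 with 1 library left out. The causes were not tested.

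The labels name no source shared by same-numbered libraries, and whether they share one is not known. Their deviations correlated at r = 0.25, a single value with 2 libraries a group. The block gave 597 higher and 716 lower genes against 291 and 392 without it. Leaving out 1 library moved these to between 64 and 510 higher and between 118 and 615 lower.

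Of the 39 members, 20 changed sign with the values as deposited, none of them called in any setting. There, in either gene set, changes were 0.11 for Adcy3, 0.07 for Bbs1, 0.06 for Bbs12, 0.02 for Bbs5, 0.12 for Bbs7, 0.07 for Bbs9, 0.09 for Ift140, 0.14 for Ift22, 0.09 for Ift43, 0.10 for Ift46, 0.14 for Ift52, 0.01 for Ift57 and Ift74, 0.03 for Ift80, 0.09 for Ift81, 0.02 for Ift88, 0.16 for Kif3a, 0.07 for Rpgrip1l, 0.03 for Smo and 0.14 for Ttbk2. With 1 library left out, sign changed within the ranges of Bbs12 (-0.11 to 0.01), Bbs7 (-0.09 to 0.01), Bbs4 (-0.03 to 0.06), Ift22 (-0.11 to 0.01), Ift43 (-0.23 to 0.11), Ift46 (-0.18 to 0.03), Ift52 (-0.12 to 0.07), Kif3a (-0.07 to 0.01), Ofd1 (-0.05 to 0.06), Sufu (-0.11 to 0.22) and Tulp3 (-0.09 to 0.21).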

Other observations

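Receptors that sit in the cilia of neurons were measured at low levels and in both directions, and none passed. Mchr1, the receptor for melanin-concentrating hormone, was at 3.19 and 2.68 scaled TPM in shCTCF and at 2.30 and 1.97 in shLAC, a log2 change of 0.33 (SE 0.0939, limma adjusted p = 0.0992). Both shCTCF libraries were above both shLAC libraries. Sstr3, a somatostatin receptor used as a marker of neuronal cilia, was at 2.52 and 1.77 scaled TPM in shCTCF and at 3.34 and 2.51 in shLAC, a change of -0.32 (95% interval -0.67 to 0.02, limma adjusted p = 0.235). Its groups overlapped. Htr6, a serotonin receptor of neuronal cilia, was below 1 TPM in every library. These receptors were picked after their values were seen.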
